A study of Mus musculus with 36 samples.

Results

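The extensor digitorum longus (EDL) is a fast-twitch muscle of the mouse lower leg, and the 6 libraries described here were made from EDL of ERRbeta/ERRgamma dmKO mice (3 libraries) and of ERRbeta/ERRgamma WT mice (3 libraries). Titles gave the groups, and columns were matched to them by the muscle, the receptor class and the mark for Cre that the names carry. They are 6 of the 36 libraries of the series. The series measured RNA by sequencing in EDL and in the slow soleus for 3 classes of mice, each with 3 knockout and 3 wild-type libraries per muscle. The dmKO mice carry floxed Esrrb and Esrrg and a Cre recombinase driven by the human skeletal actin (HSA) promoter, which is active in muscle fibres, so that other cells of the muscle keep both genes. The WT mice were read from the column names as floxed without Cre, so that Cre itself and the loss of the receptors cannot be told apart. Groups used for comparison are the ERRalpha mKO, the ERRalpha/ERRgamma dmKO and the soleus of the ERRbeta/ERRgamma dmKO, each against its own WT. All mice were 1-year-old males on the C57BL/6JBom background, kept at about 22 °C.

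The estrogen-related receptors ERRalpha, ERRbeta and ERRgamma, encoded by Esrra, Esrrb and Esrrg, are orphan nuclear receptors that bind DNA without a steroid ligand and work with the PGC-1 coactivators. They are known as activators of genes of mitochondrial respiration, the tricarboxylic acid (TCA) cycle and fatty acid oxidation. Muscle fibres are graded from slow, oxidative fibres with Myh7 through IIA fibres with Myh2 to fast, glycolytic fibres with Myh4, and ERRgamma is most abundant in oxidative muscle.

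Values are the deposited log2 quantile-normalized signals, in which 1 unit is a doubling, and they are compared between samples of the same gene. Genes with an adjusted p under 0.05 (Benjamini-Hochberg) are written of as called, in a limma model fitted with 1 mean per group over all 36 libraries. Genes with a signal numbered 14029 to 14200 per dmKO library and 13787 to 14108 per WT library. Read totals are not given in the files, so the depth is unknown. Between pairs of libraries, the SD of the gene differences was 0.42 to 0.46 within dmKO, 0.45 to 0.50 within WT, and 0.44 to 0.52 between dmKO and WT, so the groups were about as far apart as their own members. The column names give each library of a muscle its own animal number, and the EDL and soleus of this class share animals. Whole-muscle RNA was measured, so fewer cells of a type and less RNA per cell cannot be told apart.

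The receptors were examined first. Esrrb was at −0.05, −0.07 and 0.11 in dmKO EDL, against 0.12, 0.18 and 0.23 in WT EDL. The groups did not overlap, but the difference of −0.18 ± 0.21 (SE) was not called (limma adjusted p = 0.947). Esrrg was at 2.01, 1.75 and 2.04 in dmKO EDL, against 1.42, 1.57 and 1.35 in WT EDL. All 3 dmKO libraries lay above the WT libraries, and the difference of 0.48 ± 0.15 was not called (limma adjusted p = 0.26). Against all 9 wild-type EDL libraries it was 0.61 and called (limma adjusted p = 0.0098). In soleus of the same class, where 6.71% of genes were called, Esrrg rose by 1.09 ± 0.15. Esrra, whose exons overlap Trmt112 on the opposite strand, averaged 5.07 ± 0.05 in dmKO EDL and 5.09 ± 0.17 in WT EDL (SD, n = 3 each). These signals cover whole genes, in which a lost floxed exon may not be seen, so they do not test the deletion.

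Few genes were called. Of 13333 genes tested, 29 (0.218%) passed, with 8 (0.06%) higher and 21 (0.158%) lower in dmKO EDL, and 953 genes had an unadjusted p under 0.05. Fitted on the 6 libraries alone, limma called 4 genes, 3 of them among the 29, namely Dach2, Amy1 and Slc41a1. The other 26 lost their call in that fit, and these include every contractile and lipid gene called. Of the 29 genes, 8 were called in every fit that left out 1 library, and Dach2 and Amy1 were called under every alternative that could be fitted for them. The count was 11 without the second WT library, 16 without the second dmKO library and 19 without the third WT library. The groups did not overlap in 27 of the 29 genes, and the other 2, Ccl21b and Cidea, had missing values. For Ccl21b, the second dmKO library alone had a value (−3.003), against 0.875 and 0.926 in WT EDL with the third library missing. The mean signal over all libraries was at or above the median of all genes (0.25) in 21 of the 29. Dach2, Cd28, Zfp7, Cidea, Pcbd1, Tiam1 and Ccl21b lay below it, so their differences are between low signals. Among 12562 genes with 6 values, 660 (5.25%) had all dmKO values below all WT values, and 1282 (10.2%) had them above. The median difference over all genes was 0.03.

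Myosin genes of slow and IIA fibres were among the genes that fell most. Myl2 encodes the regulatory myosin light chain of slow and cardiac muscle. Its signal was 2.20, 0.18 and 0.18 in dmKO EDL, against 4.86, 5.41 and 4.92 in WT EDL, a difference of −4.21 ± 0.63 (limma adjusted p = 0.00128). Every dmKO library lay below every WT library of this class, with the first dmKO library closest to WT. Myl3, the essential light chain of slow and cardiac muscle, was at 2.85, 1.23 and 0.96 in dmKO EDL, against 3.80, 4.75 and 4.50 in WT EDL. The difference was −2.67 ± 0.56 (limma adjusted p = 0.0233). The groups were separate, again with the first dmKO library nearest to WT. Myh2, the heavy chain of IIA fibres, was at 4.99, 5.35 and 6.16 in dmKO EDL, against 7.55, 7.80 and 7.06 in WT EDL, and fell by 1.97 ± 0.35 (limma adjusted p = 0.00573). Its exons overlap 9430073C21Rik on the opposite strand, as those of Myl2 overlap Ccdc63.

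These genes also varied among wild-type EDL. Over the 6 WT EDL libraries of the other 2 classes, Myl2 ranged from 2.15 to 5.59, Myl3 from 1.59 to 4.29 and Myh2 from 5.75 to 7.67. For each of the 3 genes, 2 of the 3 dmKO libraries lay below all 6. Against all 9 WT EDL libraries, Myl2 (−3.16, limma adjusted p = 0.00112) and Myh2 (−1.61, limma adjusted p = 0.00248) stayed past the threshold, and Myl3 (−1.58, limma adjusted p = 0.102) did not. Myl2 was called in each fit that left out 1 library (−4.88 to −3.87), but not in the fit on the 6 libraries alone. Myl3 lost its call without the second dmKO (−2.45), the third dmKO (−2.31), the second WT (−2.47) or the third WT library (−2.59). Myh2 lost it without the first dmKO (−1.71) or the second WT library (−1.80).

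**Figure D1:**
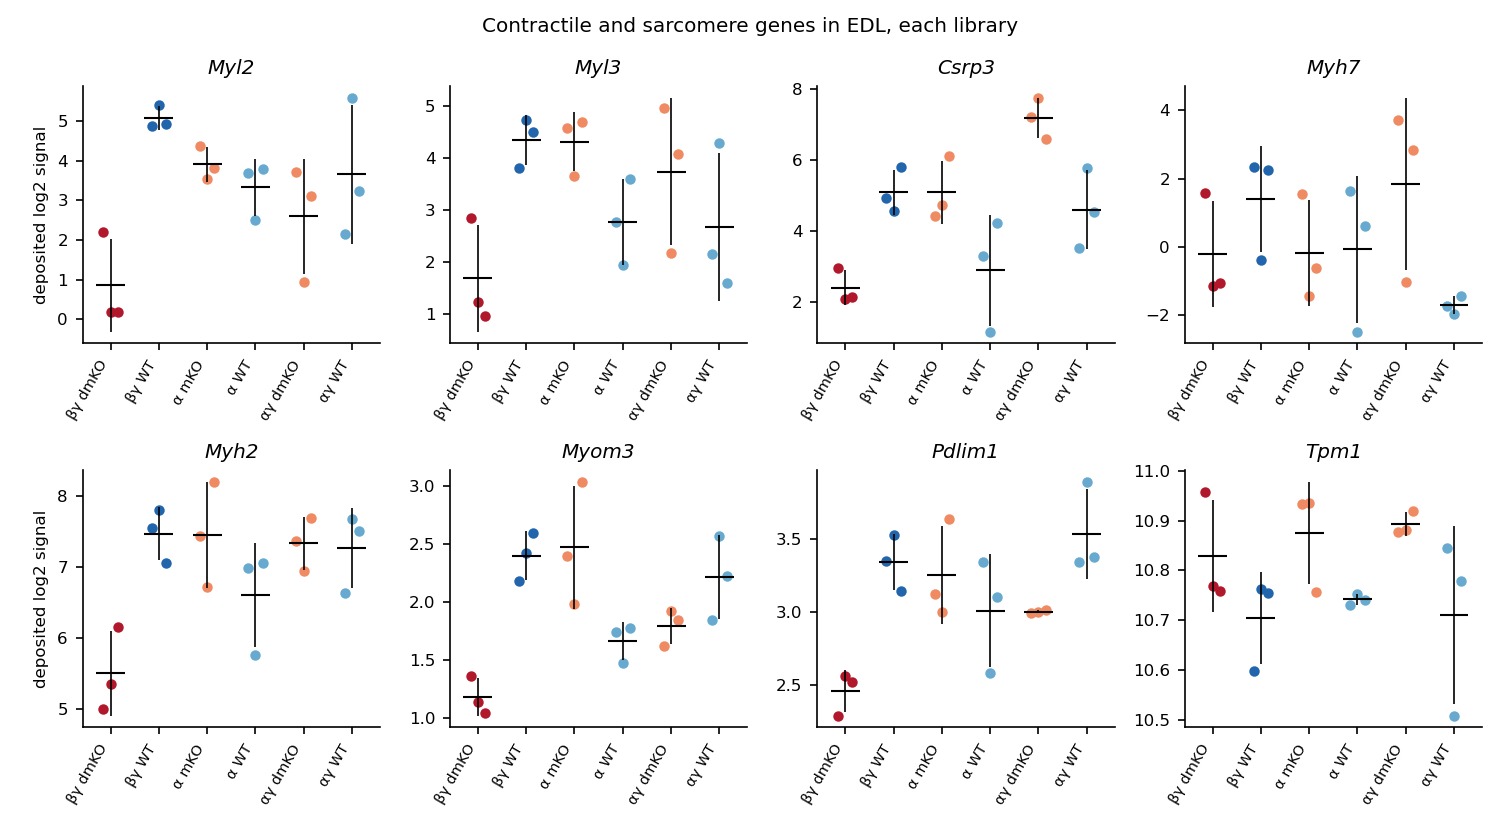
Deposited log2 signal of 8 contractile and sarcomere genes in EDL of the 3 classes, with ERRbeta/ERRgamma written as βγ, ERRalpha as α and ERRalpha/ERRgamma as αγ. Points are libraries, horizontal lines group means and vertical lines 1 SD (n = 3). Myl2, Myl3, Csrp3, Myh2, Myom3 and Pdlim1 of βγ dmKO lie below those of βγ WT, whereas Myh7 and Tpm1 overlap.

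The sequences around the starts of Myl3 and Myh2 are shown because both myosin genes fell in dmKO EDL. They run from 250 bases before to 50 bases after the RefSeq start on GRCm38.p6, on the plus strand, Myl3 at chr9:110763428-110763727 and Myh2 at chr11:67170777-67171076.
Myl3: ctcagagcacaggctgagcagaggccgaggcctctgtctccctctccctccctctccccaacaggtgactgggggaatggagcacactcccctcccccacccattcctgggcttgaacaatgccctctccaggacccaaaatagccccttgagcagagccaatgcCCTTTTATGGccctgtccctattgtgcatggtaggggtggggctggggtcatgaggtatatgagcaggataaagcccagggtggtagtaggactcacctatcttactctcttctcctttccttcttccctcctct
Myh2: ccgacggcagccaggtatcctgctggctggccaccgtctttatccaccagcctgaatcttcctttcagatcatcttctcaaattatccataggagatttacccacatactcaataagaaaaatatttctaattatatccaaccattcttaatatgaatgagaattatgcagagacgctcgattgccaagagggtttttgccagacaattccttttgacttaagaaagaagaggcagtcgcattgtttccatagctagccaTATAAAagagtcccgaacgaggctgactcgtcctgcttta
Capitals mark a CArG box in Myl3, the motif of serum response factor, and the letters TATAAA in Myh2, which begin 10 bases after the start base, not upstream of it as a TATA box does. Altogether 6 motifs were searched on both strands, and 1 of them, the CArG box, was added after the Myl3 window had been read, so that its match there was known when it was chosen. RefSeq windows were found for 20 of the 29 called genes, and shares refer to all 32851 windows. The ERR element TCAAGGTCA stood in no window of the called genes, against 0.423% of all windows, nor did AAGGTCA, the half-site it contains, against 4.72%. The MEF2 pattern, CTA and TAG with any 4 bases between, stood in Ldhb (3.69% of all windows), the E-box CAGCTG in Cuzd1, Myl2 and Tiam1 (16.3%), TATAAA in Amy1, Dach2, Myh2, Myl2 and Pcbd1 (13.6%), and the CArG box in Myl3 and Tiam1 (1.63%). A missing match says that these letters are not in this window. The RefSeq windows of Myl2 lie upstream of its annotated GENCODE start and are not printed. The printed Myl3 window lies within the GENCODE gene, which begins further upstream, at base 110741861 of chromosome 9.

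Of the 15 slow contractile genes, 2 fell, against 0.158% of all genes, and none rose. In this list 13 genes lay below 0, against 42.5% of all genes. Their median difference was −0.74, against 0.03 over all genes, and between −1.10 and −0.56 when 1 library was left out. Against all 9 WT EDL libraries it was smaller, at −0.50. In 7 of the 15 all dmKO values were below all WT values, against 5.25% of genes with 6 values. The summed signal of the list was 10.06 to 10.31 on the log2 scale in dmKO EDL and 10.81 to 10.84 in WT EDL, and 10.36 to 11.37 in WT EDL of the other classes. Csrp3, a Z-disc protein of striated muscle, was at 2.96, 2.08 and 2.14 in dmKO EDL, against 4.92, 4.54 and 5.78 in WT EDL, a separation of the groups that was not called (−2.69 ± 0.66, limma adjusted p = 0.105). In WT EDL of the other classes Csrp3 ranged from 1.16 to 5.76, and every dmKO value lay within that range. Myh7, the slow heavy chain, was at 1.59, −1.15 and −1.06 in dmKO EDL, against 2.33, −0.38 and 2.25 in WT EDL. Its groups overlapped (−1.61 ± 0.94, limma adjusted p = 0.792). Picked after their values were seen, Tnnt1, slow troponin T, had a difference of −1.39 ± 0.42 (limma adjusted p = 0.243), and Atp2a2, the slow calcium pump, one of −0.99 ± 0.24 (limma adjusted p = 0.0827).

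Of the 18 genes of IIA fibres, the M-band and the Z-disc, 3 fell, against 0.158% of all genes, and none rose. The falls were Myh2, Myom3 and Pdlim1. The median difference of the list was −0.25, or −0.11 against all 9 WT EDL libraries. In this list 15 genes lay below 0, against 42.5% of all genes. All dmKO values were below all WT values in 8 of them and above in 1, against 5.25% and 10.2% of genes with 6 values. Myom3, a myomesin of the M-band, was at 1.37, 1.14 and 1.05 in dmKO EDL, against 2.18, 2.43 and 2.60 in WT EDL (−1.21 ± 0.23, limma adjusted p = 0.0109). Pdlim1, a PDZ-LIM protein that binds alpha-actinin, was at 2.29, 2.56 and 2.52 in dmKO EDL, against 3.35, 3.53 and 3.15 in WT EDL (−0.89 ± 0.17, limma adjusted p = 0.0101). For both genes all 3 dmKO libraries also lay below the 6 WT EDL libraries of the other classes. Myom3 lost its call without the second dmKO (−1.19), the third dmKO (−1.15), the second WT (−1.20) or the third WT library (−1.12), and Pdlim1 without the first dmKO (−0.80) or second WT library (−0.79). Without the second WT library none of the 18 genes was called. None of the 16 fast contractile genes was called. Their differences ranged from −0.14 to 0.24, with a median of 0.05 that was 0.0042 without the first WT library, 0.10 without the second and 0.10 against all 9 WT EDL libraries, and with Tpm1 at 10.83 ± 0.11 in dmKO EDL and 10.70 ± 0.09 in WT EDL (SD, n = 3 each). The sign of Atp2a1, the fast calcium pump, was −0.13 ± 0.15 and turned to 0.0034 without the first WT library.

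Genes were then ranked by muscle, using WT soleus minus WT EDL of the other 2 classes, 6 libraries each, which share no library with the 6 compared and in which 48.0% of genes were called, 26.7% higher and 21.3% lower in soleus. Of the 21 genes that fell, 18 were higher in WT soleus, against that 26.7%, and none was lower. Of the 8 that rose, 4 were also higher in WT soleus and 2 were lower, against 26.7% and 21.3%. Among 279 genes higher in soleus by at least 2 log2 units, the median difference in dmKO EDL was −0.15, 11 fell and none rose. Of those with 6 values, 19.7% had all dmKO values below WT and 6.55% above. Among 771 genes higher in soleus by 1 to 2 units, the median was −0.0093, and 3 fell and 3 rose. Among 197 genes lower in soleus by at least 2 units, the median was 0.14, none fell and 1 rose, with 4.62% below and 15.9% above, against 5.25% and 10.2% over all genes. The share below was thus near that of all genes, and the share above was much the same in genes lower in soleus by under 1 unit (15.6%) or by 1 to 2 units (15.8%).

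**Figure D2:**
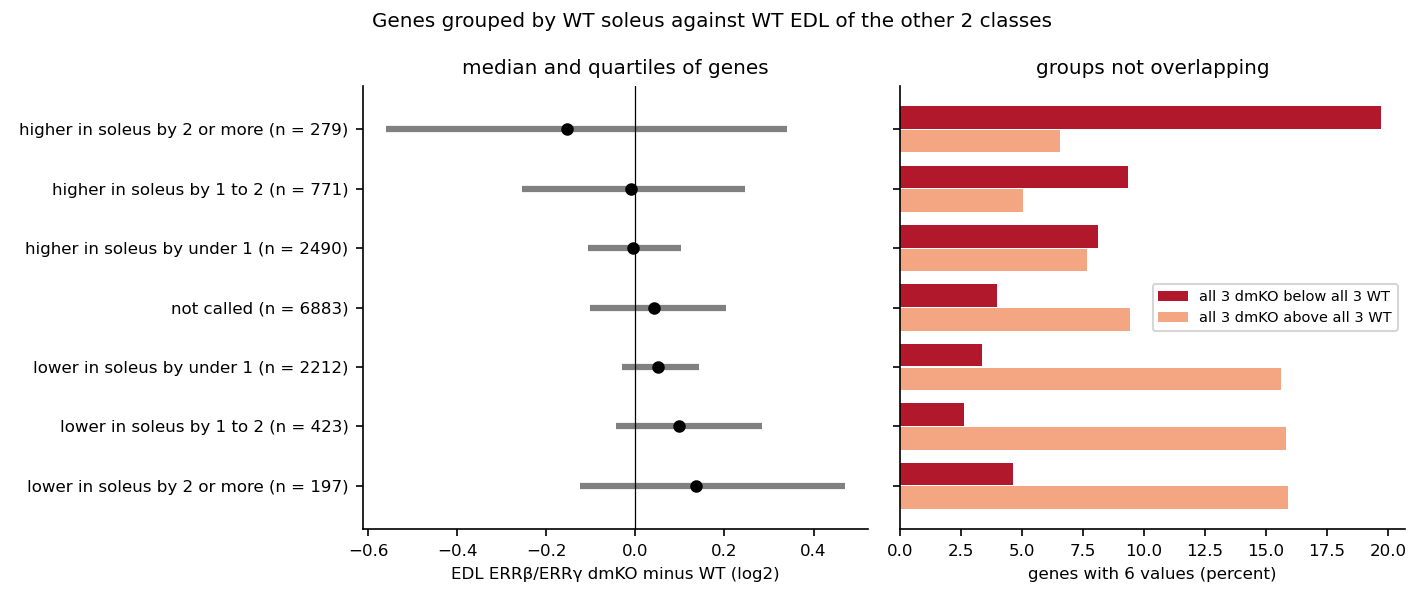
Genes grouped by how WT soleus compares with WT EDL of the ERRalpha and ERRalpha/ERRgamma classes, in log2 units. Left, median (point) and quartiles (bar) of EDL ERRbeta/ERRgamma dmKO minus WT. Right, percent of genes with 6 values in which the 3 dmKO libraries lie all below or all above the 3 WT libraries, from 19.7% below in the top group to 4.62% below in the bottom group.

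Of the genes of lipid uptake and droplets, Lpl and Cidea fell. Lpl, lipoprotein lipase, which frees fatty acids from circulating triglyceride, was at 6.13, 5.96 and 6.20 in dmKO EDL, against 7.67, 6.93 and 7.03 in WT EDL (−1.11 ± 0.19, limma adjusted p = 0.00349). The groups were separate, and Lpl was called in each fit that left out 1 library, but not in the fit on the 6 libraries alone. Against all 9 WT EDL libraries the fall was smaller (−0.61, limma adjusted p = 0.0498), and 1 dmKO library lay below the range of the 6 other WT EDL libraries. Cidea, a lipid droplet protein, was at −2.45 and −3.47 with 1 value missing in dmKO EDL, against 0.03, −0.74 and −1.56 in WT EDL (−2.20 ± 0.43, limma adjusted p = 0.0165). Its call was lost without the third dmKO (−1.69), first WT (−1.81) or second WT library (−2.20), and against all 9 WT EDL libraries (−1.27). These were the 2 genes called of 20 tested for lipid uptake and droplets, against 0.158% of all genes called lower. The median difference of the list was −0.20, or −0.11 without the first and −0.12 without the third WT library. Named after their values were seen, Fabp3, a fatty acid binding protein, had a difference of −0.78 ± 0.27 (limma adjusted p = 0.389), and Cd36, a fatty acid transporter, one of −0.61 ± 0.20 (limma adjusted p = 0.322). Acss2, which makes acetyl-CoA from acetate in the cytosol and nucleus, fell by 0.76 ± 0.15 (limma adjusted p = 0.0183), and its exons overlap Acss2os and Gss. Of the 6 fits that left out 1 library, 1 called Acss2, the one without the first dmKO library, and in the others the difference was −0.80 to −0.69.

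None of the 25 fatty acid oxidation genes was called. Of these, 24 lay below 0, against 42.5% of all genes, and in 18 all dmKO values were below all WT values, against 5.25% of genes with 6 values. Their median difference was −0.29 and stayed between −0.36 and −0.21 when 1 library was left out. Acsl1, which activates long-chain fatty acids, was at 4.92, 4.75 and 4.79 in dmKO EDL, against 5.71, 5.32 and 5.34 in WT EDL (−0.64 ± 0.17, limma adjusted p = 0.14). Acaa2, the mitochondrial thiolase, was at 5.97, 6.08 and 6.14 in dmKO EDL, against 6.41, 6.76 and 6.38 in WT EDL (−0.45 ± 0.13, limma adjusted p = 0.199). In both, the groups did not overlap. In soleus of the same class, where 3.55% of all genes were called lower, 23 of the 25 genes fell, with a median of −0.71. In EDL of the ERRalpha/ERRgamma dmKO, where 18.1% of all genes were called and 6.95% called lower, 22 fell, with a median of −0.95. In EDL of the ERRalpha mKO, where 3.28% of all genes were called, none of the list was.

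In the TCA cycle, 1 of 21 genes fell, against 0.158% of all genes. Idh2, the mitochondrial NADP-dependent isocitrate dehydrogenase, was at 4.526, 4.788 and 4.997 in dmKO EDL, against 5.999, 6.135 and 5.478 in WT EDL (−1.10 ± 0.20, limma adjusted p = 0.00609). Its groups were separate, and all 3 dmKO libraries lay below the 6 WT EDL libraries of the other classes. It lost its call without the first dmKO (−0.98) or the second WT library (−0.97). Nnt, the transhydrogenase of the inner mitochondrial membrane, which also yields NADPH, was at 4.12, 4.16 and 4.30 in dmKO EDL, against 5.29, 5.26 and 4.91 in WT EDL (−0.96 ± 0.16, limma adjusted p = 0.00349). In 8 of the 21 genes all dmKO values were below all WT values, against 5.25% of genes with 6 values. The median of the list was −0.09, or −0.03 without the second WT library, and it turned to 0.04 against all 9 WT EDL libraries.

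Differences of respiratory chain genes were small. None of the 36 complex I genes was called, with a median difference of 0.0001 and a range of −0.15 to 0.13. All dmKO values were below WT in 2 of them and above in 2. None was called among the 14 genes of complex II, complex III and cytochrome c (median −0.06), the 14 of cytochrome c oxidase (−0.04) or the 15 of ATP synthase (−0.03). These 4 medians stayed between −0.10 and 0.04 when 1 library was left out, and that of cytochrome c oxidase was −0.10 against all 9 WT EDL libraries. All dmKO values were below all WT values in 4 of the 14 genes of complex II, complex III and cytochrome c, in 3 of the 14 of cytochrome c oxidase and in 1 of the 15 of ATP synthase. They were all above in 1, 0 and 1 genes of these lists, with the same shares over all genes as for complex I. In EDL of the ERRalpha/ERRgamma dmKO, where 6.95% of all genes were called lower, 35 of the 36 complex I genes fell, with a median of −1.03. In EDL of the ERRalpha mKO, where 1.46% were called lower, 22 of the 36 fell, with a median of −0.32. None of the 19 genes that break down branched-chain amino acids and ketone bodies was called, and 17 of them lay below 0, with a median of −0.15 that was −0.10 without the first WT library and −0.04 against all 9 WT EDL libraries.

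**Figure D3:**
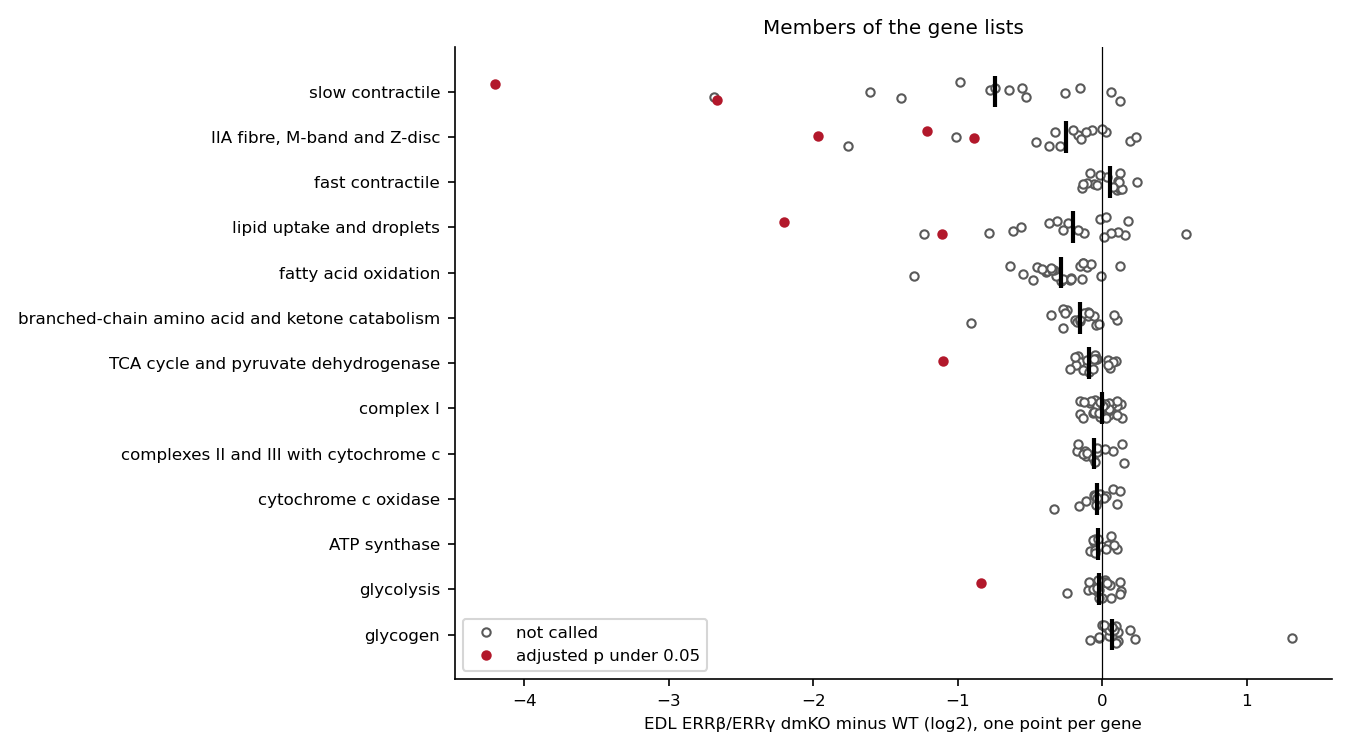
Difference of EDL ERRbeta/ERRgamma dmKO minus WT on the log2 scale for each gene of 13 lists. Filled points passed an adjusted p of 0.05, open points did not, and the black bar is the median of the list. The slow contractile list has the lowest median (−0.74), and complex I has one of 0.0001.

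In glycolysis 1 of 21 genes fell, against 0.158% of all genes. Ldhb, the lactate dehydrogenase subunit of oxidative tissue, was at 5.94, 6.04 and 6.17 in dmKO EDL, against 6.86, 7.06 and 6.75 in WT EDL (−0.84 ± 0.15, limma adjusted p = 0.0049), a call lost without the second WT library (−0.76). Its groups were separate in this class, but it rose by 0.85 ± 0.15 in EDL of the ERRalpha mKO. The effects of the 2 deletions on Ldhb differed by −1.70 ± 0.21 (limma adjusted p = 3.85e-05). Ppp1r3c, a glycogen-targeting subunit of protein phosphatase, was at 7.897, 6.538 and 7.560 in dmKO EDL, against 6.049, 5.598 and 6.402 in WT EDL. The groups were separate, and the difference was not called (1.32 ± 0.36, limma adjusted p = 0.174), as for the other 16 glycogen genes.

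Among 9 carbonic anhydrases tested, 1 rose, Car3, against 0.06% of all genes. Car3 is an abundant cytosolic form of slow muscle and fat. It was at 8.82, 9.32 and 9.20 in dmKO EDL, against 7.57, 7.75 and 6.80 in WT EDL (1.74 ± 0.28, limma adjusted p = 0.00207). The WT EDL of the other classes ranged from 7.96 to 9.20, above every WT library of this class, and against all 9 WT EDL libraries Car3 was not called (0.87, limma adjusted p = 0.0617). Car3 also rose in EDL of the ERRalpha mKO (2.26 ± 0.28), in EDL of the ERRalpha/ERRgamma dmKO (2.49 ± 0.28) and in soleus of the ERRbeta/ERRgamma dmKO (1.21 ± 0.28).

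Some of the 29 genes changed the same way in the EDL of all 3 classes, each against its own WT. There were 12 such genes, and 6 of them, Dach2, Amy1, Slco3a1, Exoc2, Slc41a1 and Car3, were also called the same way in soleus of the ERRbeta/ERRgamma class, from the same animals. The share of all genes called jointly in this way is not given here, so the 12 and the 6 have no background of their own. Dach2, a dachshund family transcription cofactor, was at −3.13, −3.48 and −3.74 in dmKO EDL, against 0.06, 0.04 and 0.16 in WT EDL (−3.54 ± 0.42, limma adjusted p = 9.18e-05). It fell by 4.01 ± 0.47 in EDL of the ERRalpha mKO and by 4.68 ± 0.47 in EDL of the ERRalpha/ERRgamma dmKO. Amy1, salivary amylase, fell by 1.38 ± 0.23, and Exoc2, a subunit of the exocyst, by 0.82 ± 0.10. Since every knockout group carries Cre and no WT group does, a shared effect of Cre and a shared effect of receptor loss cannot be told apart in these genes.

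Of the 21 falls, 10 were called lower in soleus of the same class (background 3.55%), 7 in EDL of the ERRalpha mKO (1.46%), where 2 were called higher, and 14 in EDL of the ERRalpha/ERRgamma dmKO (6.95%). Of the 8 rises, 2 were called higher in soleus (3.16%), 5 in EDL of the ERRalpha mKO (1.82%) and 7 in EDL of the ERRalpha/ERRgamma dmKO (11.1%). In contrast, 7 of the 29, Myl2, Ccl21b, Myl3, Zfp7, Cidea, Myh2 and Cuzd1, were not called in EDL of the other 2 classes. Ccl21b belongs to a family of near-identical copies, its dmKO value comes from the second library alone, and it is uncertain.

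**Figure D4:**
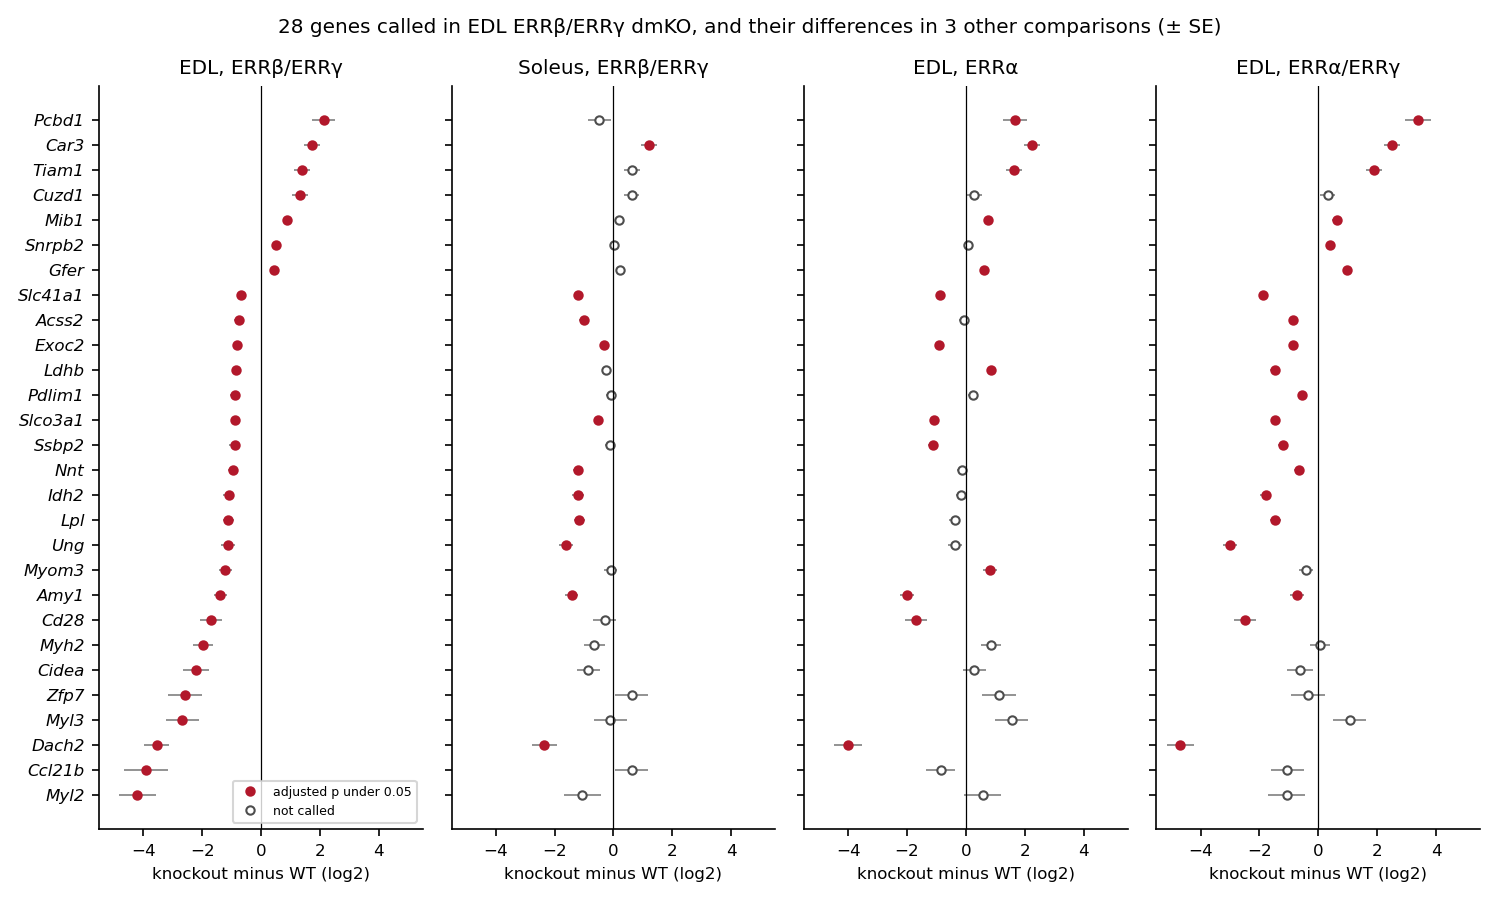
Knockout minus WT on the log2 scale, with the SE, for 28 of the 29 genes called in EDL ERRbeta/ERRgamma dmKO, in that comparison and in 3 others. Filled points passed an adjusted p of 0.05. Dach2 is lower in all 4 comparisons, and Myl2, Myl3 and Myh2 are filled in the first panel alone.

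The remaining calls were Ung, uracil DNA glycosylase (−1.14 ± 0.24), Cd28, a T cell costimulatory receptor (−1.71 ± 0.38), Ssbp2, a single-stranded DNA binding protein (−0.90 ± 0.18), Slco3a1, an organic anion transporter (−0.90 ± 0.14), and Slc41a1, a magnesium transporter (−0.69 ± 0.12). Zfp7, a zinc finger protein whose exons overlap Gm49527, fell by 2.58 ± 0.57, a call lost in every fit that left out 1 library. The rises also held Pcbd1, a pterin dehydratase (2.12 ± 0.40), Tiam1, a Rac exchange factor (1.39 ± 0.27), Cuzd1 (1.32 ± 0.26), Mib1, an E3 ligase of Notch signalling (0.89 ± 0.16), Snrpb2, a spliceosome protein (0.50 ± 0.10), and Gfer, a sulfhydryl oxidase of mitochondrial import (0.43 ± 0.09). Against all 9 WT EDL libraries Mib1 (0.23, limma adjusted p = 0.47), Snrpb2 (0.28, limma adjusted p = 0.124) and Zfp7 (−1.71, limma adjusted p = 0.082) were not called. Mib1 was at 3.23 to 3.51 in WT EDL of this class and 3.98 to 4.95 in the other WT EDL libraries, and for Snrpb2 and Gfer too the WT libraries of this class lay below the other 6. Of these 12 genes, Slco3a1 alone was called in each fit that left out 1 library.

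Whether the effect differed from the others was tested directly. Against EDL of the ERRalpha mKO, 55 genes (0.415%) differed, 22 higher and 33 (0.249%) lower, and 34 without the third dmKO or 35 without the first WT library of the ERRbeta/ERRgamma class. In the slow contractile list 4 of 15 had the lower effect in ERRbeta/ERRgamma dmKO and in the IIA, M-band and Z-disc list 3 of 18. They include Csrp3 (−4.88 ± 0.94), Myl2 (−4.78 ± 0.89), Myl3 (−4.22 ± 0.79) and Myh2 (−2.82 ± 0.49). Against EDL of the ERRalpha/ERRgamma dmKO, 914 genes (6.87%) differed, 540 (4.06%) higher and 374 (2.81%) lower. Of the 36 complex I genes 33 had the higher effect, as had 19 of 21 TCA cycle genes and 13 of 25 fatty acid oxidation genes, whereas 9 of 15 slow contractile genes had the lower one. In EDL of the ERRalpha/ERRgamma dmKO itself, 7 of these 15 rose and 2 fell, against 11.1% and 6.95% of all genes. Their median there was 0.98. Against soleus of the ERRbeta/ERRgamma class, 28 genes (0.21%) differed, 21 higher and 7 (0.0526%) lower, and 105 with the animal as a block, since EDL and soleus came from the same animals. That count was 521 without the second and 1 without the first soleus dmKO library, and most other libraries moved it too. Myl2 (−3.15 ± 0.89, limma adjusted p = 0.13) was not among them.

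None of the markers of other cell types was called. The summed adipocyte signal was 6.94 to 7.15 in dmKO EDL and 7.35 to 7.51 in WT EDL on the log2 scale, so the groups did not overlap. The summed smooth muscle and pericyte signal was 6.43 to 6.56 in dmKO EDL and 6.67 to 6.85 in WT EDL, again without overlap. In WT EDL of the ERRalpha class the adipocyte sum was 7.09 to 7.34 and the smooth muscle and pericyte sum 6.27 to 6.80, both overlapping the dmKO values. In WT EDL of the ERRalpha/ERRgamma class the sums were 7.57 to 8.54 and 6.72 to 6.98, above them. Of the adipocyte markers 4 of 7 lay below 0, and Fabp4, which carries most of that sum, had a difference of −0.35 ± 0.21. All 8 smooth muscle and pericyte markers lay below 0, as did 8 of 10 endothelial, all 6 Schwann cell and all 5 red blood cell markers, in which the summed signals of the groups overlapped. The leukocyte sum was 4.20 to 5.19 in dmKO EDL and 4.17 to 5.43 in WT EDL, and the skeletal fibre sum 15.01 to 15.05 in dmKO EDL and in WT EDL. Their part in the falls of Lpl, Cidea and the lipid genes was not tested.

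Other lists had no member called. They are the ERR partners, fibre-type regulators, control of pyruvate dehydrogenase, antioxidant enzymes, angiogenic factors, denervation and atrophy genes, satellite cell and myogenic genes, and the integrated stress response. Their medians lay between −0.09 and 0.11. Vegfb, an angiogenic factor known as an ERR target, was at 5.66, 5.58 and 5.75 in dmKO EDL, against 5.96, 5.99 and 5.93 in WT EDL, a separation that was not called (−0.30 ± 0.09, limma adjusted p = 0.259). Trim63, a ubiquitin ligase of atrophy, was at 6.598, 6.204 and 6.445 in dmKO EDL, against 5.839, 5.955 and 6.009 in WT EDL, likewise separate and not called (0.48 ± 0.16, limma adjusted p = 0.33).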

How the data were processed

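The authors deposited log2 quantile-normalized signals per gene for 36 libraries. The submitters' processing notes name Partek 6.6, GRCm38.p6 and mm10. Neither the aligner nor the strand setting of the counting is known here. Per the labels' protocols, libraries were made from 400 ng of RNA with 10 PCR cycles and a directional kit. Quantile normalization is meant to make the distributions of all libraries equal, so that a shift of all genes may not be seen. The mean of the kept genes with a value in every library still differed, from 1.70 to 2.08 over the 36 libraries. It was 1.83 to 1.89 in dmKO EDL and 1.75 to 1.86 in WT EDL of the ERRbeta/ERRgamma class. Genes were ranked by their mean over libraries, with gaps set to the table's minimum, and the lowest 25% were dropped, so that 13404 of 17873 genes remained. Missing values stayed missing in the fit, in limma 3.58.1 (R 4.3.3) with an intensity trend and 12 group means over 36 libraries. Column names carry no replicate number, so a library's number follows the column order and serves only to name it. For EDL ERRalpha the class letter is missing from the names, and the animal number shared with soleus placed them. Genes were named where called, as receptors, as the called or lowest-p members of each list, or as the largest differences of each test between effects. Members and lists were chosen with earlier results of these data known. The ranking by WT soleus against WT EDL was chosen after seeing the data. Of 6 promoter motifs, 1 (the CArG box) was added after a promoter window had been read. Positions are from GENCODE M21 on GRCm38, and promoter windows from RefSeq. Of the called genes, 1 is counted but not reported here by name.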

Additional observations from a re-analysis of the deposited data

Results flagged for a closer look

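The effect of the deletion differed between muscles or classes in 3 direct tests. For EDL against soleus of the ERRbeta/ERRgamma class, 28 genes differed. The effect in EDL was lower for Eda2r (−1.70), Anxa4 (−0.97), Ltbr (−0.94), Bop1 (−0.81) and Tbc1d10b (−0.80), and higher for Lrtm1 (2.08), Gmnn (2.06), Rnaset2b (1.73), Plin3 (1.31) and Slc2a12 (1.16), in log2 units. In these 10 genes the EDL comparison itself was not called. The leukocyte sum was 8.32, 5.24 and 6.68 in the 3 soleus dmKO libraries, and its part in these differences was not tested.

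For the ERRbeta/ERRgamma against the ERRalpha deletion in EDL, 55 genes differed. The effect was lower for Csrp3 (−4.88), Myl2 (−4.78), Myl3 (−4.22), Cyfip2 (−3.37) and Myh2 (−2.82). It was higher for P2ry1 (2.15), Gm14325 (0.80) and the respiratory genes Ndufa13 (0.79), Cycs (0.74) and Ndufa1 (0.71). Among these genes, only Myl2, Myl3 and Myh2 were called in the EDL ERRbeta/ERRgamma comparison itself.

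For the ERRbeta/ERRgamma against the ERRalpha/ERRgamma deletion in EDL, 914 genes differed. The effect was lower for the slow fibre genes Csrp3 (−5.27), Myh7 (−5.15), Myl3 (−3.74), Myl2 (−3.14) and Tnnc1 (−3.05). The difference for Myl2 was not called in several fits that left out 1 library, with an adjusted p of up to 0.11 in limma. The effect was higher for Kcng4 (3.23), Fuom (3.05), Chchd10 (2.72), Gnb5 (2.72) and Clybl (2.53). Only Myl3 and Myl2 among these genes were called in the EDL ERRbeta/ERRgamma comparison itself. A difference can also come from a change in the ERRalpha/ERRgamma dmKO, where 7 of 15 slow contractile genes rose and 2 fell.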

How the results depend on the processing

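The 29 calls became 4 with the 6 libraries alone, 107 against all 9 WT EDL libraries (62 higher, 45 lower, 23 shared) and 79 with array weights (29 shared), and 11 to 25 when 1 library was left out, 11 without the second WT library. The split moved from 8 higher and 21 lower to 62 and 45 against the 9 WT libraries. The 28 genes that differed from soleus became 0 with the 4 groups alone (1056 at an unadjusted p under 0.05), 46 with a filter at the median, 14 without the intensity trend, 164 with array weights, 105 with the animal as a block, and 1 to 521 when 1 library was left out, 521 without the second and 1 without the first soleus dmKO library. The 55 that differed from ERRalpha became 24 with the 4 groups alone and 88 with array weights, and 34 to 55 when 1 library was left out. The 914 that differed from ERRalpha/ERRgamma stayed within 1.5 times, at 757 to 893 with 1 library left out. With 1 library left out, Esrra ranged from −0.1118 to 0.0558 and Atp2a1 from −0.2007 to 0.0034, and against the 9 WT libraries the sign turned for Pdp2 (0.0478), Pdk1 (0.0004) and Pfkfb1 (0.1109), none of them called. Of 1688 values of named genes under alternatives, 229 lost the call, 6 gained it and 5 changed sign. The cause was not tested. No paired analysis was possible because the column names carry no replicate number, apart from the block on animals between muscles. The number of libraries and the unknown depth limit the precision.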
